A study of Macaca mulatta with 4 samples.

Results

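The voltage-gated sodium channel genes described here are SCN1A (ENSMMUG00000008407), SCN2A (ENSMMUG00000002712), SCN3A (ENSMMUG00000018840) and SCN8A (ENSMMUG00000000415), which encode pore-forming alpha subunits, and SCN2B (ENSMMUG00000006267) and SCN3B (ENSMMUG00000000343), which encode auxiliary beta subunits. They were picked by their symbols from the gene list of the counts, in which each symbol has 1 row, and they are 6 of the 30807 genes listed. Their unique molecular identifiers (UMIs) were counted in the 32467 barcodes taken as nuclei, which show 500 or more genes and no more than 5% mitochondrial UMIs. The nuclei came from flash-frozen cerebellar hemispheres, with part of the vermis, of 4 rhesus macaque fetuses, with 1 library of single-nuclei RNA per fetus. Control female and Control male had no intervention and were at 130 days of gestation. LPS female, at 131 days, and LPS male, at 133 days, had been exposed for 5 days to 1 mg of intra-amniotic lipopolysaccharide (LPS), a bacterial cell-wall molecule used to model chorioamnionitis. With 2 fetuses per group, and with the LPS fetuses a little older, exposure, age and the differences between single fetuses cannot be told apart.

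Alpha subunits form the channel that opens on depolarization and carries the rising phase of the action potential, and beta subunits bind them and modify their gating and their place in the membrane. In the brain, SCN3A is known as a channel of the fetal period, SCN2A as a channel of excitatory neurons that reaches the axon initial segment early, SCN8A as the later channel of the initial segment and the nodes of Ranvier, and SCN1A as a channel of inhibitory neurons. In the developing cerebellum, granule cell precursors divide in the external granule layer, leave the cell cycle, migrate inward and mature in the internal granule layer. SCN3A and SCN2A are next to each other among protein-coding genes of the RefSeq annotation of assembly T2T-MMU8v2.0, and SCN1A adjoins SCN9A. This assembly is not the build of the counts (Mmul_8.0.1).

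The 4 libraries held 34282015 to 61665690 UMIs, and a nucleus held a median of 1882 (Control male) to 4514 (Control female) UMIs. Any pair of libraries shared 16 to 21 barcodes. LPS male stood apart from the other 3 libraries. Its nuclei held 38.7% of its UMIs against 58.7 to 73.6% elsewhere, its empty droplets held a median of 496 UMIs against 196 to 300, and 2070 of the 3098 nuclei left without a class were its own. Those without a class were 2 clusters that are still counted among the nuclei. One of 2324 barcodes, 1883 of them from LPS male, had low depth, with a median of 758 UMIs. The other, of 774 barcodes, held 74.8% likely doublets. LPS male also held 1409 of the 2352 nuclei of the mature granule stage, 59.9% of them. Values are therefore given per library where a result turns on them, and some means also without LPS male. Levels are CPM, the UMIs of a gene scaled to 1000000 UMIs of the class in that library, and a mean ± SD is over 4 libraries unless 3 are named. UMI counts were not scaled by gene length, so a level is compared with the level of the same gene in other classes and not with that of another gene.

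Nuclei were clustered without the sodium channel genes, and clusters were named from lists of markers, so a name stands for nuclei that are like a cell type by its markers. The granule lineage took 22361 nuclei (68.9%) and was divided into 1820 proliferating precursors, 2786 committing, 4330 migrating, 4814 maturing, 4222 late and 2352 mature granule cells, in the order of the marker lists. A further granule subcluster of 2037 nuclei, led by NELL1 and CHRM2 (named after their values were seen), was left without a stage and is called subcluster 6. Levels were ordered over the 19 classes and stages with at least 100 nuclei. Unipolar brush cells (76 nuclei) were under this number and are not in the order. Golgi cells numbered 43, 86, 54 and 15 nuclei in Control female, Control male, LPS female and LPS male. Purkinje cells numbered 32, 55, 25 and 18 in the same order, so levels per library in these classes rest on few nuclei. Clusters and levels come from the same nuclei, so differences between classes are described and not tested.

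**Figure D1:**
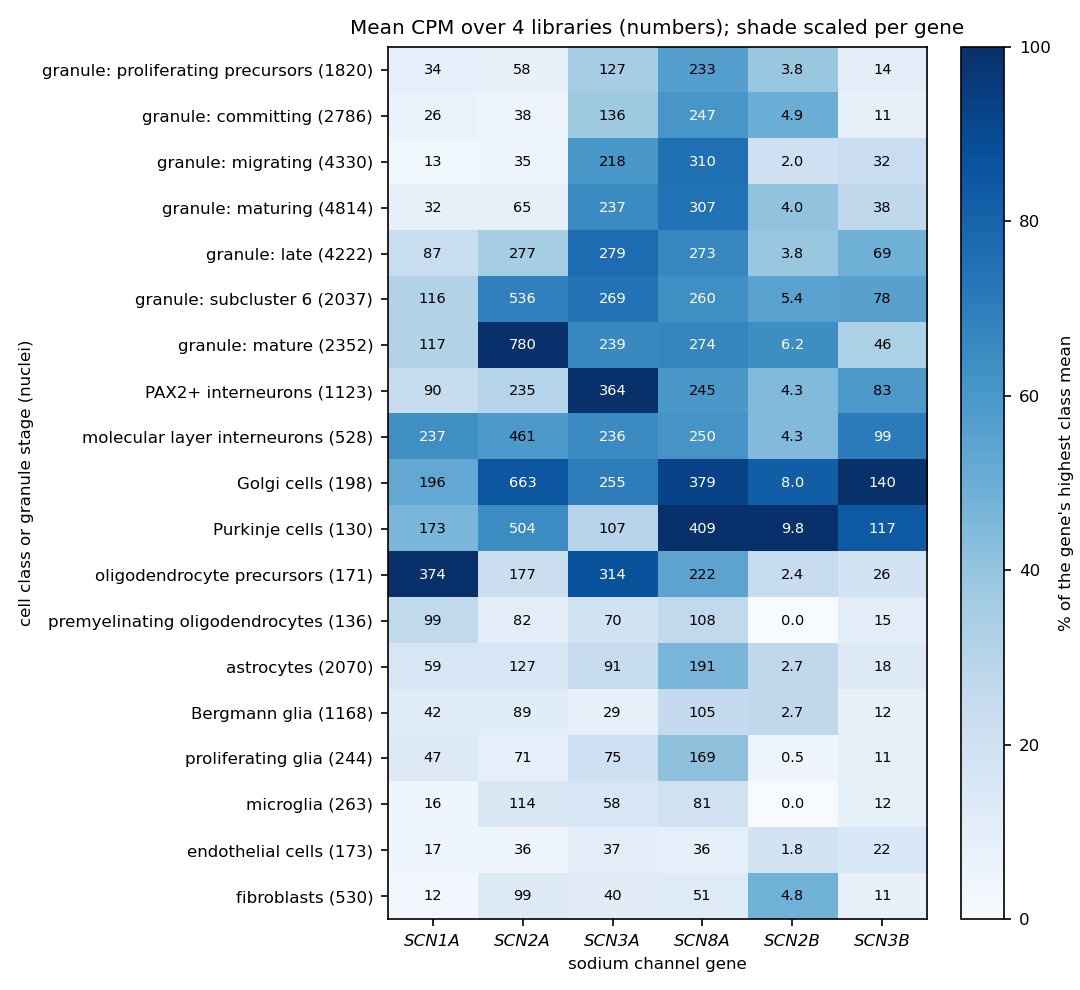
Mean CPM over 4 libraries of the 6 sodium channel genes (columns) in 19 cell classes and granule stages (rows, with the number of nuclei); shade is the percent of the gene's own highest class. The darkest cells are mature granule cells for SCN2A (779.8 CPM), PAX2+ interneurons for SCN3A (364 CPM) and oligodendrocyte precursors for SCN1A (374 CPM). Equally dark are Purkinje cells for SCN8A (409 CPM) and SCN2B (9.78 CPM) and Golgi cells for SCN3B (140 CPM).

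SCN2A was highest in mature granule cells and in Golgi, Purkinje and molecular layer cells. In mature granule cells it was at 861 and 628 CPM in Control female and male and 479 and 1152 CPM in LPS female and male. Golgi cells, inhibitory interneurons of the granule layer, were next with 663 ± 136 CPM, followed by subcluster 6 (536 ± 221 CPM), Purkinje cells (504 ± 77.4 CPM), molecular layer interneurons (461 ± 77.5 CPM) and late granule cells (277 ± 133 CPM). Its lowest level was in migrating granule cells, with 23.4 and 23.2 CPM in Control female and male and 8.66 and 84.3 CPM in LPS female and male. The ranges over libraries of neighbouring classes in this order overlapped at every step. LPS male was the highest library in 15 of the 19 classes and stages and the lowest in 0. Without it, mature granule cells were at 656 ± 192 CPM, subcluster 6 at 429 ± 64.6 CPM, late granule cells at 211 ± 25.9 CPM and migrating granule cells at 18.4 ± 8.44 CPM (n = 3).

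SCN2A in classes that should lack it was under the level of free RNA, taken from barcodes with at most 100 UMIs. Empty droplets, which held more UMIs, give a second profile. Counts of libraries above or under free RNA refer to the first profile and can differ against the second. SCN2A in free RNA was at 187, 176, 93.8 and 419 CPM in Control female, Control male, LPS female and LPS male, respectively. The 263 nuclei named as microglia, the immune cells of the brain, raised 10 of 10 markers of that list, but F13A1, which led them, and MRC1, also among their 10 leading genes, are known from macrophages at the borders of the brain. Whether such macrophages are among them was not tested. These nuclei held 42.3 and 38.2 CPM in Control female and male and 60.2 and 315 CPM in LPS female and male, and fibroblasts 93.4 and 53.1 CPM in Control female and male and 74.4 and 175 CPM in LPS female and male. Both classes stayed under the free RNA of their own library in all 4 libraries, as did 9 further classes and stages, among them astrocytes, Bergmann glia and the granule stages from proliferating precursors to maturing cells. A level under that of free RNA is not by itself background, since free RNA made up only part of the UMIs of a class, estimated at 7.03 to 19.01% in Bergmann glia and 11.1 to 23.9% in the pairs of granule stages. With the estimated free RNA subtracted, committing and migrating granule cells were at 0.180 and 0.992 CPM on average, while proliferating precursors were at 21.2 CPM (57.7 before), maturing cells at 34.4 CPM (65.3 before) and Bergmann glia at 66.6 ± 2.63 CPM (88.999 before). Mature and late granule cells, subcluster 6, Golgi cells, Purkinje cells and molecular layer interneurons were above the level of free RNA in all 4 libraries. PAX2+ interneurons were above it in 2 and oligodendrocyte precursors in 3 libraries.

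**Figure D2:**
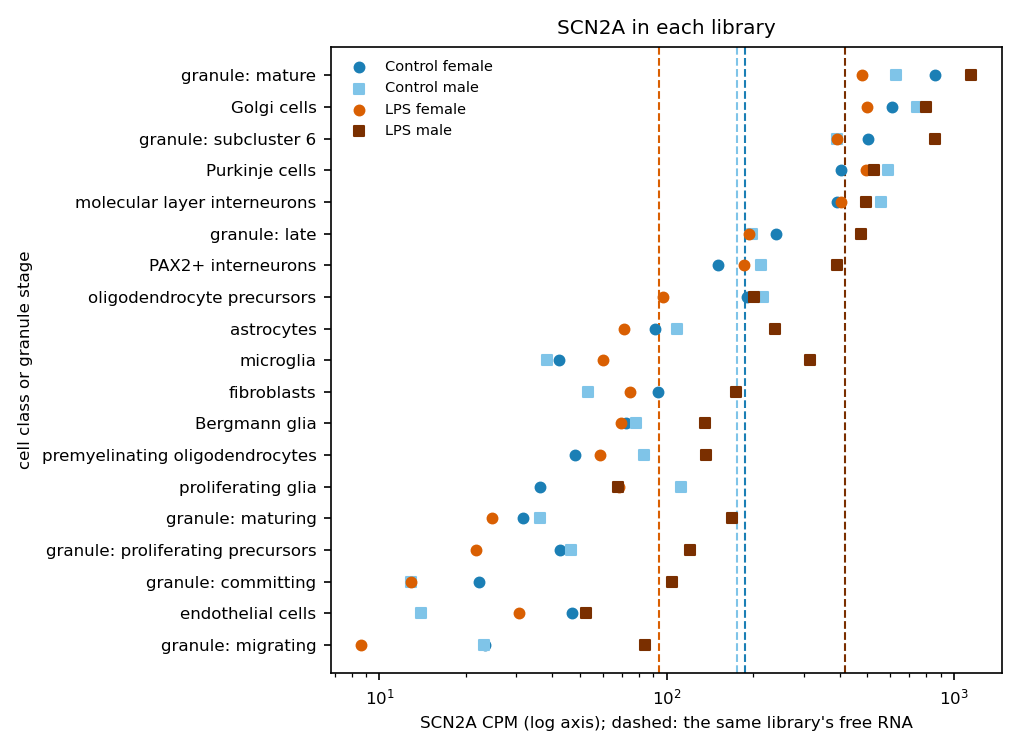
SCN2A CPM (log axis) in each library (points; blue Control, orange and brown LPS, circles female, squares male) for 19 classes and stages, ordered by mean; dashed lines are SCN2A in the free RNA of each library. LPS male lies to the right in 15 of 19 rows, and its free RNA stands at 419 CPM.

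SCN3A had a broader pattern. Among the classes and stages ordered, it was highest in PAX2+ interneurons, the inhibitory interneuron precursors of the fetal cerebellum, with 377 and 436 CPM in Control female and male and 345 and 297 CPM in LPS female and male. Oligodendrocyte precursors, the dividing cells that give rise to myelinating glia, came next with 293 and 385 CPM in Control female and male and 311 and 269 CPM in LPS female and male. The granule stages from migrating to mature lay between 218 ± 32.3 CPM (migrating) and 279 ± 56.5 CPM (late), and Golgi cells (255 ± 38.8 CPM) and molecular layer interneurons (236 ± 66.9 CPM) lay in the same span. All of these were above free RNA, which stood at 160.1, 184, 111 and 129 CPM, in all 4 libraries. Below them, the range over libraries of migrating granule cells (187 to 260.4 CPM) did not overlap that of committing granule cells (117 to 150.2 CPM), the only step in the order of 19 at which neighbours were separate. Purkinje cells, the output neurons of the cerebellar cortex, held 114 and 161 CPM in Control female and male and 91.2 and 62.7 CPM in LPS female and male, under free RNA in all 4 libraries. Bergmann glia were lowest with 28.7 ± 15.5 CPM.

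SCN1A stood out in the oligodendrocyte precursors. There it was at 348 and 434 CPM in Control female and male and 396 and 317 CPM in LPS female and male, and this range did not overlap that of the next class, molecular layer interneurons (213 to 275 CPM). The precursors numbered 171 nuclei and held 243 SCN1A UMIs. Premyelinating oligodendrocytes held 168 and 125 CPM in Control female and male and 49.4 and 54.7 CPM in LPS female and male, and the 85 myelinating ones, 58 of them from LPS male, held 33.05 and 96.3 CPM in Control female and male and 84.4 and 18.8 CPM in LPS female and male from 19 UMIs. The level was thus lower in each later oligodendrocyte class than in the precursors in every library. Among neurons, Golgi cells (196 ± 30.3 CPM) and Purkinje cells (173 ± 46.6 CPM) followed the molecular layer interneurons, and the ranges of neighbours overlapped at every step after the first. Migrating granule cells (13.4 ± 10.5 CPM) and fibroblasts (11.98 ± 3.51 CPM) were lowest, and with 7 further classes and stages they were at or under free RNA (41.7, 80.4, 57.7 and 68.4 CPM) in all 4 libraries.

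SCN8A was highest in Purkinje and Golgi cells. Purkinje cells held 457 and 406 CPM in Control female and male and 373 and 400.0 CPM in LPS female and male, and Golgi cells 367 and 331 CPM in Control female and male and 305 and 514 CPM in LPS female and male. Every granule stage lay between 233 CPM (proliferating precursors) and 310.0 CPM (migrating) on average, and molecular layer (249.8 ± 26.4 CPM) and PAX2+ (245 ± 14.1 CPM) interneurons lay in that span. Endothelial cells (35.8 ± 10.4 CPM) and fibroblasts (50.8 ± 9.93 CPM) were lowest, and these classes, microglia, Bergmann glia and premyelinating oligodendrocytes stayed under free RNA (165, 253, 141 and 217 CPM) in all 4 libraries. Oligodendrocyte precursors, astrocytes and proliferating glia were above it in 2 libraries each, Control female and LPS female. No neighbours in the order were separate in their ranges.

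The beta subunit genes were less abundant in UMIs. SCN3B, of which 5267 UMIs were counted, was highest in neurons. Golgi cells held 200.4 and 96.1 CPM in Control female and male and 178 and 87.02 CPM in LPS female and male. Purkinje cells (117 ± 33.5 CPM), molecular layer interneurons (99.3 ± 16.4 CPM), PAX2+ interneurons (83.4 ± 29.3 CPM), subcluster 6 (77.9 ± 25.3 CPM) and late granule cells (68.5 ± 19.4 CPM) followed, all above free RNA (74.6, 33.6, 56.9 and 29.7 CPM) in all 4 libraries. Astrocytes, Bergmann glia, proliferating glia, microglia and fibroblasts were each at 17.6 CPM or less on average. For SCN2B only 430 UMIs were counted in all nuclei, 299 of them in the granule lineage. Purkinje cells held 14 UMIs and 9.78 ± 4.39 CPM, Golgi cells 8 UMIs and 8.03 ± 11.2 CPM, and mature granule cells 56 UMIs and 6.24 ± 1.41 CPM. No SCN2B UMI was found in the 263 microglia, which allows a level of up to 3.03 CPM (3 counts of their summed UMIs, counting error only). At this depth no order of the classes can be read for SCN2B.

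The alpha subunits parted along the granule cell stages. SCN3A was higher from migration on. Between committing and migrating cells its level was 1.60-fold higher on average and higher in all 4 libraries (log2 difference 0.67 ± 0.087). Committing cells held 127 and 150.2 CPM in Control female and male and 117 and 150.2 CPM in LPS female and male, and migrating cells 201 and 225 CPM in Control female and male and 187 and 260.4 CPM in LPS female and male. Committing cells were above free RNA in 2 of the 4 libraries and migrating cells in all 4. In empty droplets SCN3A was at 159 and 166 CPM in Control female and male and 125 and 151 CPM in LPS female and male. Committing cells were under that profile in every library, and migrating cells above it in every library. It was highest at the late stage in 3 libraries and at the migrating stage in LPS male. From late to mature cells it was lower in all 4 libraries, with a mean log2 difference of -0.23 ± 0.17, but with classes set per barcode from marker scores it was 1.10-fold higher in LPS female. Mature cells held 194 and 315 CPM in Control female and male and 261 and 185 CPM in LPS female and male. The ranges of neighbouring stages after migration overlapped.

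SCN2A was low until the maturing stage and then steep. Maturing cells held 31.5 and 36.2 CPM in Control female and male and 24.8 and 169 CPM in LPS female and male, and late cells 241 and 198 CPM in Control female and male and 194 and 474 CPM in LPS female and male. The level was 5.39-fold higher in late than in maturing cells (log2 difference 2.43 ± 0.67) and a further 2.86-fold higher in mature cells (1.52 ± 0.27), in 4 of 4 libraries at each step. In LPS male the step from maturing to late was 1.48 on the log2 scale, against 2.90, 2.42 and 2.92 in Control female, Control male and LPS female, while its early stages held more SCN2A. Maturing cells were under free RNA in every library, and with free RNA subtracted the step from maturing to late was 11.01-fold on average (16.2-fold and 14.2-fold in Control female and male and 12.5-fold and 5.12-fold in LPS female and male). With classes set per barcode from marker scores, the step from late to mature was 1.90-fold. Without LPS male, the mean fold was 6.71 from maturing to late and 3.03 from late to mature.

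SCN1A followed a course with a minimum in migrating cells. Proliferating precursors held 15.5 and 50.8 CPM in Control female and male and 26.7 and 41.2 CPM in LPS female and male, migrating cells 2.81 and 16.6 CPM in Control female and male and 7.64 and 26.6 CPM in LPS female and male, and mature cells 76.9 and 166 CPM in Control female and male and 129 and 97.96 CPM in LPS female and male. Against this minimum, mature cells held 10.1-fold more (log2 difference 3.34 ± 1.10, 4 of 4 libraries), and 14.3-fold more without LPS male. The levels before the late stage were at or under free RNA in all 4 libraries. With free RNA subtracted, precursors were at 10.8 and 44.8 CPM in Control female and male and 21.9 and 33.7 CPM in LPS female and male, and the level stayed lower in migrating than in committing cells in all 4 libraries. Migrating cells were then at 0 and 6.83 CPM in Control female and male and 1.09 and 15.6 CPM in LPS female and male, so no fold is given over them. SCN8A was 1.25-fold higher in migrating than in committing cells (log2 difference 0.33 ± 0.051, 4 of 4 libraries). From maturing to late cells it was lower in all 4 libraries, at 0.892 times the maturing level. Between late and mature cells the log2 difference was 0.0082 ± 0.049. Mature cells held 0.886 times the SCN8A level of migrating cells, lower in all 4 libraries. SCN3B was 2.71-fold higher in migrating than in committing cells and 1.73-fold higher in late than in maturing cells, each in 4 of 4 libraries, and from late to mature it was lower in all 4, at 0.635 times the late level. With classes set per barcode from marker scores it was 1.35-fold higher in mature than in late cells of LPS female. SCN3B in committing and migrating cells was under free RNA in all 4 libraries, and in maturing cells in 2. With free RNA subtracted, SCN3B was at 1.72 to 7.44 CPM in committing, 22.1 to 34.7 CPM in migrating and 32.2 to 44.3 CPM in maturing cells, and the step between them ranged from 2.73-fold in LPS male to 13.1-fold in Control female. SCN3B in mature cells was 36.3 and 59.9 CPM in Control female and male and 68.6 and 19.7 CPM in LPS female and male, under free RNA in Control female and LPS male.

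**Figure D3:**
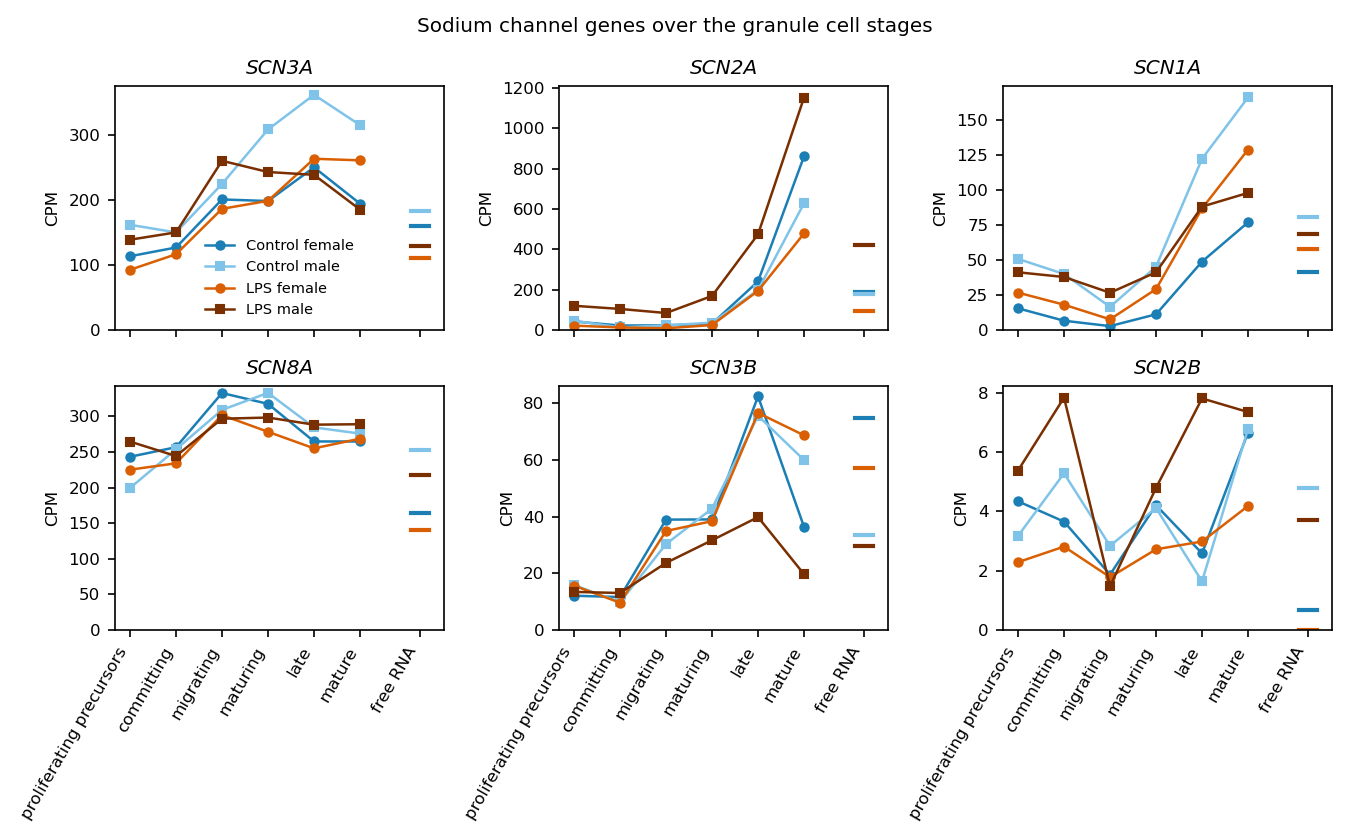
CPM of each sodium channel gene (linear axes from 0, scaled per gene) over 6 granule cell stages in each library; short bars at the right are the gene's level in the free RNA of that library. SCN2A climbs after the maturing stage to 479 to 1152 CPM in mature cells, SCN3A is highest at the late stage in 3 of 4 libraries, and SCN8A stays between 199 and 333 CPM.

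Mature cells were set against proliferating precursors within each library. All 6 genes were higher in mature cells in all 4 libraries, as were 19.1% of the 11355 genes with at least 5 CPM in either stage, while 44.4% were lower in all 4. The fold was 15.2 for SCN2A, 3.60 for SCN1A, 2.80 for SCN3B, 1.87 for SCN3A, 1.53 for SCN2B and 1.18 for SCN8A, on the scale of CPM plus 1. SCN2B passed the cut of 5 CPM by its mean in mature cells (6.24 CPM) and not in precursors, so it entered the set through its higher stage. It rested on 5 to 14 UMIs per library in precursors and 5 to 34 in mature cells. With classes set per barcode from marker scores SCN2B was higher in 3 of 4 libraries, at 0.975-fold in LPS female. The count of all 6 genes therefore holds in the main setting and not with those classes. The precursor levels of SCN2A, SCN1A and SCN3B were under free RNA in all 4 libraries, and that of SCN3A in 3 of 4. With free RNA subtracted, precursors kept 21.2 CPM of SCN2A, 27.8 CPM of SCN1A, 7.87 CPM of SCN3B and 124 CPM of SCN3A on average, against 57.7, 33.6, 14.3 and 127 CPM before. The fold was then 40.6 for SCN2A, 4.72 for SCN1A and 2.03 for SCN3A, and for SCN3B it ranged from 1.86 in LPS male to 16.4 in Control female, where 0.974 CPM were left in precursors. With doublets removed it was 31.1 for SCN2A and 4.38 for SCN3B, and all of these genes stayed higher in mature cells in all 4 libraries. For SCN2A the log2 difference was 4.31, 3.73, 4.40 and 3.25 in Control female, Control male, LPS female and LPS male. For SCN3A it was 0.77, 0.96, 1.48 and 0.41. The smallest difference of any library was that of LPS male for SCN1A, SCN2A, SCN3A, SCN2B and SCN3B. Without LPS male, the fold was 17.7 for SCN2A, 4.15 for SCN1A and 3.50 for SCN3B.

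SCN3A was set against SCN2A as its share of the UMIs of the pair, in which the depth of a library cancels. From migrating to mature cells SCN3A was 1.08-fold higher on average, and higher in 2 of 4 libraries. SCN2A was 28.0-fold higher, in 4 of 4. A lower share at later stages is thus not by itself a loss of SCN3A. Before the late stage SCN2A was under free RNA in every library, and its part in the shares of those stages was not tested. In migrating cells the share was 89.6 and 90.6% in Control female and male and 95.6 and 75.5% in LPS female and male. In late cells it was 50.97 and 64.6% in Control female and male and 57.6 and 33.5% in LPS female and male, and in mature cells 18.4 and 33.4% in Control female and male and 35.3 and 13.9% in LPS female and male. In all 4 libraries the share was lower in late than in maturing cells and lower again in mature cells. The exact 95% interval (Clopper-Pearson, counting error only) in mature cells was 16.6 to 20.3% in Control female and 30.2 to 36.7% in Control male, so the controls differed by more than counting error. LPS male had the lowest share at 6 of 6 stages, with free RNA not subtracted. Subtraction left almost no SCN2A in committing and migrating cells, as given above, so the shares of those stages cannot be ordered. Subcluster 6 had a share of 30.6 and 47.1% in Control female and male and 41.6 and 21.00% in LPS female and male, between late and mature cells in each library. Outside the lineage, the share was 71.5 and 67.2% in Control female and male and 65.1 and 43.1% in LPS female and male in PAX2+ interneurons, 60.7 and 63.9% in Control female and male and 76.1 and 57.1% in LPS female and male in oligodendrocyte precursors, and 21.98 and 21.4% in Control female and male and 15.6 and 10.7% in LPS female and male in Purkinje cells. The Purkinje share in LPS male rested on 75 UMIs (exact 95% interval 4.72 to 19.9%).

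**Figure D4:**
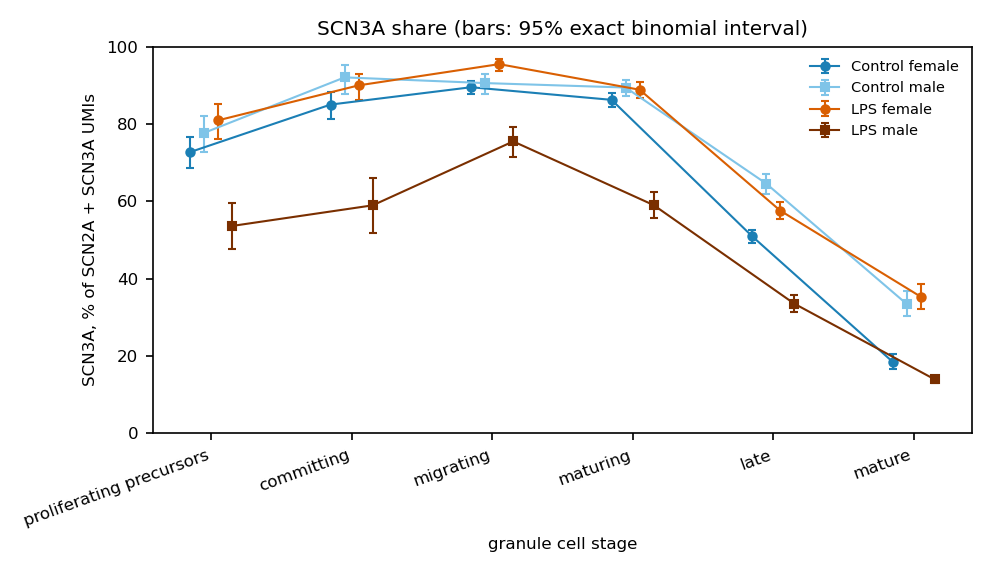
Share of SCN3A among SCN2A plus SCN3A UMIs (percent) at 6 granule cell stages in each library; bars are exact 95% binomial intervals of counting error. From maturing to mature cells the share goes from 59.02 to 89.5% down to 13.9 to 35.3%.

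Genes that hold sodium channels at the axon initial segment or act on them were described from a list of 15. Of the 14 with at least 5 CPM in either stage, 9 were higher in mature than in proliferating granule cells in all 4 libraries and 4 were lower, with a median log2 difference of 0.81 against -0.29 over all genes of that level. Unlike the members, these genes were not left out of the clustering, so they may have helped to set the stages. Their folds were taken without subtraction of free RNA. FGF14 and FGF12, which encode intracellular partners of the channel, were 5.82-fold and 5.29-fold higher in mature cells. In free RNA, FGF14 was at 671 (LPS female) to 2038 CPM (LPS male) and FGF12 at 544 (LPS female) to 1043 CPM (LPS male). SPTBN4 (beta-4 spectrin) and NFASC (neurofascin), both parts of the initial segment, were 3.99-fold and 3.35-fold higher. ANK3 (ankyrin-G), the scaffold that anchors the channel there, was 1.57-fold higher, with its highest mean in migrating cells (2332 ± 205 CPM). TNR (tenascin-R), an extracellular matrix protein that binds beta subunits, was 11.3-fold higher. REST, a repressor that silences sodium channel and other neuronal genes outside neurons, was lower in mature cells in all 4 libraries, with log2 differences between -2.99 and -1.44, and was highest in fibroblasts (42.7 to 87.6 CPM). KCNQ3, a potassium channel gene of the initial segment, was lower in all 4 libraries, with a mean log2 difference of -0.49 ± 0.24.

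Further genes of the sodium channel family were described from a fixed list, of which SCN4B was not analysed here. SCN9A, a channel best known from sensory neurons, was highest in premyelinating oligodendrocytes, with 88.9 and 142 CPM in Control female and male and 121 and 49.2 CPM in LPS female and male, above its free RNA (15.7, 18.01, 13.6 and 18.6 CPM) in all 4 libraries. NALCN, a leak channel of the same superfamily, was highest in committing granule cells (876 ± 332 CPM). Unlike the SCN genes, NALCN was not left out of the clustering. SCN4A and SCN7A passed 5 CPM only on 5 to 18 UMIs in a class. SCN10A and SCN11A stayed under 5 CPM in all 19 classes and stages.

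The genes most like each alpha subunit were sought over the 19 classes and stages, by Pearson correlation of log2(CPM + 1) among 12237 genes. All points come from the same 4 libraries, so these values are descriptions. For SCN3A they were PCDHAC2 (r = 0.948), MTMR7 (r = 0.938) and MCF2L2 (r = 0.932). For SCN2A they were CLEC2L (r = 0.914), CHD5 (r = 0.903) and SLC4A10 (r = 0.888), for SCN1A MAGI2 (r = 0.921), ANKRD55 (r = 0.880) and GPR176 (r = 0.875), and for SCN8A RAB11FIP4 (r = 0.944), AP3B2 (r = 0.943) and PROZ (r = 0.937). Between the alpha subunits, r was 0.806 for SCN1A and SCN2A, 0.808 for SCN3A and SCN8A, and 0.457 for SCN2A and SCN3A.

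To ask whether exposure to LPS changed sodium channel transcripts within a class, UMIs were summed per fetus and tested across all genes with edgeR's quasi-likelihood test in 7 classes or groups of stages. A call needed an adjusted p (Benjamini-Hochberg over all genes tested) under 0.1 and a log2 fold change over 0.25 in size. SCN2B passed the filter on low counts in the 4 granule comparisons and the other 5 genes in all 7, which made 39 tests. None was called, with 0 at an unadjusted p under 0.05, a lowest unadjusted p of 0.150 (SCN2A in PAX2+ interneurons) and an adjusted p of 1.00, the lowest of the 39, in edgeR. DESeq2 also called 0 of these genes. Over all genes, 0% were called in each comparison: 0 of 14812 genes in the granule lineage (27 at an unadjusted p under 0.05), 0 of 12390 in precursors and committing cells (40), 0 of 12676 in migrating and maturing cells (28), 0 of 12671 in late and mature cells (32), 0 of 9268 in PAX2+ interneurons (31), 0 of 9218 in Bergmann glia (38) and 0 of 8088 in the oligodendrocyte lineage (82). DESeq2 called 1 gene in late and mature cells, 1 in the oligodendrocyte lineage and 0 in the other 5 comparisons. Both LPS libraries were below both controls in 7 of the 39, which were SCN8A and SCN3B in migrating and maturing cells, SCN8A and SCN3A in PAX2+ interneurons, SCN8A in Bergmann glia, and SCN1A and SCN3A in the oligodendrocyte lineage. Of all genes tested, 5.14% in the granule lineage, 7.53% in precursors and committing cells, 5.86% in migrating and maturing cells, 5.36% in late and mature cells, 9.12% in PAX2+ interneurons, 8.19% in Bergmann glia and 9.79% in the oligodendrocyte lineage were lower in this way. Both LPS libraries were above both controls in 0 of the 39, against 7.11% in the granule lineage, 8.12% in precursors and committing cells, 8.09% in migrating and maturing cells, 8.57% in late and mature cells, 9.34% in PAX2+ interneurons, 9.43% in Bergmann glia and 11.9% in the oligodendrocyte lineage of all genes tested. The comparisons share the same 4 fetuses. These orders of the libraries were counted in the main setting only, and not under the other settings given below. On simulated counts with these library sizes, edgeR called 4.48% of the genes given a log2 change of 2 in the granule lineage and 86.6% of those given 4. The simulation used a single dispersion for all genes and no library that stood apart, so these rates may not hold for the real counts.

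SCN2A gave the largest log2 fold change of the 6 genes in the granule lineage, and its direction turned when LPS male was left out. In the granule lineage it was at 190.0 and 147 CPM in Control female and male and 122 and 596 CPM in LPS female and male, so LPS female was below and LPS male above both controls. The log2 fold change of LPS over Control was 1.08 ± 0.77 (SE) over 4 libraries and -0.48 ± 0.52 without LPS male. Within sex, the log2 difference was -0.64 between the females and 2.01 between the males. The same split was present in migrating and maturing cells, at 27.8 and 30.2 CPM in Control female and male and 16.8 and 136 CPM in LPS female and male, and in late and mature cells, at 359.7 and 313 CPM in Control female and male and 255 and 903 CPM in LPS female and male. In migrating and maturing cells SCN2A was under free RNA in every library, and the split there is given without subtraction, which left almost none in migrating cells. The mature stage made up 32.5% of the granule nuclei of LPS male and 4.63 to 6.26% in the other libraries, and with the same stage composition in every library the log2 fold change was 0.42 ± 0.51. The free share of granule UMIs was estimated at 22.8% in LPS male and 14.1 to 16.2% elsewhere, and with it subtracted the log2 fold change was 1.204 ± 0.78. In mature cells alone SCN2A was at 1152 CPM in LPS male and 479 to 861 CPM elsewhere. The part of free RNA and of the make-up of each stage in this difference was not tested further.

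In PAX2+ interneurons SCN2A was at 150.4 and 213 CPM in Control female and male and 185 and 393 CPM in LPS female and male, with a log2 fold change of 0.66 ± 0.40, and 0.071 ± 0.45 without LPS male. SCN3A in the same cells was at 377 and 436 CPM in Control female and male and 345 and 297 CPM in LPS female and male. Both LPS libraries were below both controls, with a log2 fold change of -0.34 ± 0.28, an adjusted p of 1.00 in edgeR and within-sex differences of -0.13 between the females and -0.55 between the males. It ran from -0.52 to -0.20 with 1 library left out and was -0.17 with free RNA subtracted. The free share of PAX2+ UMIs was estimated at 41.97% in LPS male and 21.01 to 24.04% elsewhere, and its part in the difference was not tested further. In Bergmann glia SCN2A was at 72.4 and 78.2 CPM in Control female and male and 69.2 and 136 CPM in LPS female and male, under free RNA in each library. With free RNA subtracted the libraries lay close together, as the mean and SD given above show.

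SCN3A in the granule lineage was at 198 and 273 CPM in Control female and male and 199 and 209 CPM in LPS female and male. The groups overlapped, and the log2 fold change was -0.19 ± 0.27. In the pairs of stages it was -0.15 ± 0.29 (precursors and committing cells), -0.082 ± 0.27 (migrating and maturing cells) and -0.32 ± 0.33 (late and mature cells). In the oligodendrocyte lineage, where both LPS libraries were below both controls, it was -0.34 ± 0.36, and -0.53 to -0.19 with 1 library left out, at 164 and 212 CPM in Control female and male and 158 and 136 CPM in LPS female and male. Within oligodendrocyte precursors SCN3A was at 293 and 385 CPM in Control female and male and 311 and 269 CPM in LPS female and male, within premyelinating oligodendrocytes at 71.8 and 66.7 CPM in Control female and male and 85.3 and 54.7 CPM in LPS female and male, and the groups overlapped in both. SCN1A was also lower in both LPS libraries there, at 224 and 232 CPM in Control female and male and 177 and 127 CPM in LPS female and male, with a log2 fold change of -0.58 ± 0.37, an adjusted p of 1.00 in edgeR and a range of -0.92 to -0.32 with 1 library left out. In this lineage 58 of 158 nuclei of LPS male were of the myelinating class, in which SCN1A and SCN3A were low (58.1 ± 37.9 and 39.8 ± 27.01 CPM), against 13 of 126, 5 of 96 and 9 of 88 in Control female, Control male and LPS female, and the part of this in either difference was not tested. Within oligodendrocyte precursors SCN1A was at 348 and 434 CPM in Control female and male and 396 and 317 CPM in LPS female and male, and the groups overlapped. Within premyelinating oligodendrocytes SCN1A was at 168 and 125 CPM in Control female and male and 49.4 and 54.7 CPM in LPS female and male. These values rested on 10 to 49 SCN1A UMIs per library. Both LPS values were under the free RNA of their own library (57.7 and 68.4 CPM). In empty droplets SCN1A was at 28.4 CPM in LPS female and 72.6 CPM in LPS male, so the LPS female value was above that profile. This class was not among the comparisons tested, and the share of all genes that part the groups in it was not counted.

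SCN1A in the granule lineage was at 30.7 and 76.8 CPM in Control female and male and 51.5 and 73.03 CPM in LPS female and male, lowest in Control female, with a log2 fold change of 0.25 ± 0.49. Both males were above both females, and this order was the same in free RNA, where SCN1A was at 41.7, 80.4, 57.7 and 68.4 CPM in Control female, Control male, LPS female and LPS male. Nuclei of the males also held fewer UMIs. The median was 1882 in Control male and 2310 in LPS male, against 4514 in Control female and 4061.5 in LPS female. Mean mitochondrial shares were 0.042 and 0.11% in Control and LPS male and 0.58 and 0.51% in Control and LPS female. Sex cannot be told apart from these differences or from the single fetus. SCN8A was at 282 and 285 CPM in Control female and male and 261 and 285 CPM in LPS female and male in the granule lineage with a log2 fold change of -0.051 ± 0.26. Its log2 fold change lay between -0.31 (Bergmann glia) and 0.043 (precursors and committing cells) over the 7 comparisons. In Bergmann glia, where it was under free RNA in every library, it was at 109 and 123 CPM in Control female and male and 93.8 and 93.8 CPM in LPS female and male, with both LPS libraries below both controls. In LPS female this level was above that of empty droplets, where SCN8A was at 69.0 CPM. Over the other settings with all libraries its log2 fold change there ran from -0.42 to -0.077. SCN3B in the granule lineage was at 49.4 and 46.6 CPM in Control female and male and 47.6 and 26.5 CPM in LPS female and male, lowest in LPS male, and in late and mature cells at 73.5 and 71.4 CPM in Control female and male and 74.8 and 27.1 CPM in LPS female and male, with a log2 fold change of -0.50 ± 0.58, and 0.093 ± 0.51 without LPS male. Its other values lay between -0.56 (oligodendrocyte lineage) and 0.33 (PAX2+ interneurons). SCN2B in the granule lineage was at 3.47 and 3.64 CPM in Control female and male and 2.87 and 6.42 CPM in LPS female and male, with a log2 fold change of 0.39 ± 0.60, and between -0.24 and 0.70 over the 4 granule comparisons.

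**Figure D5:**
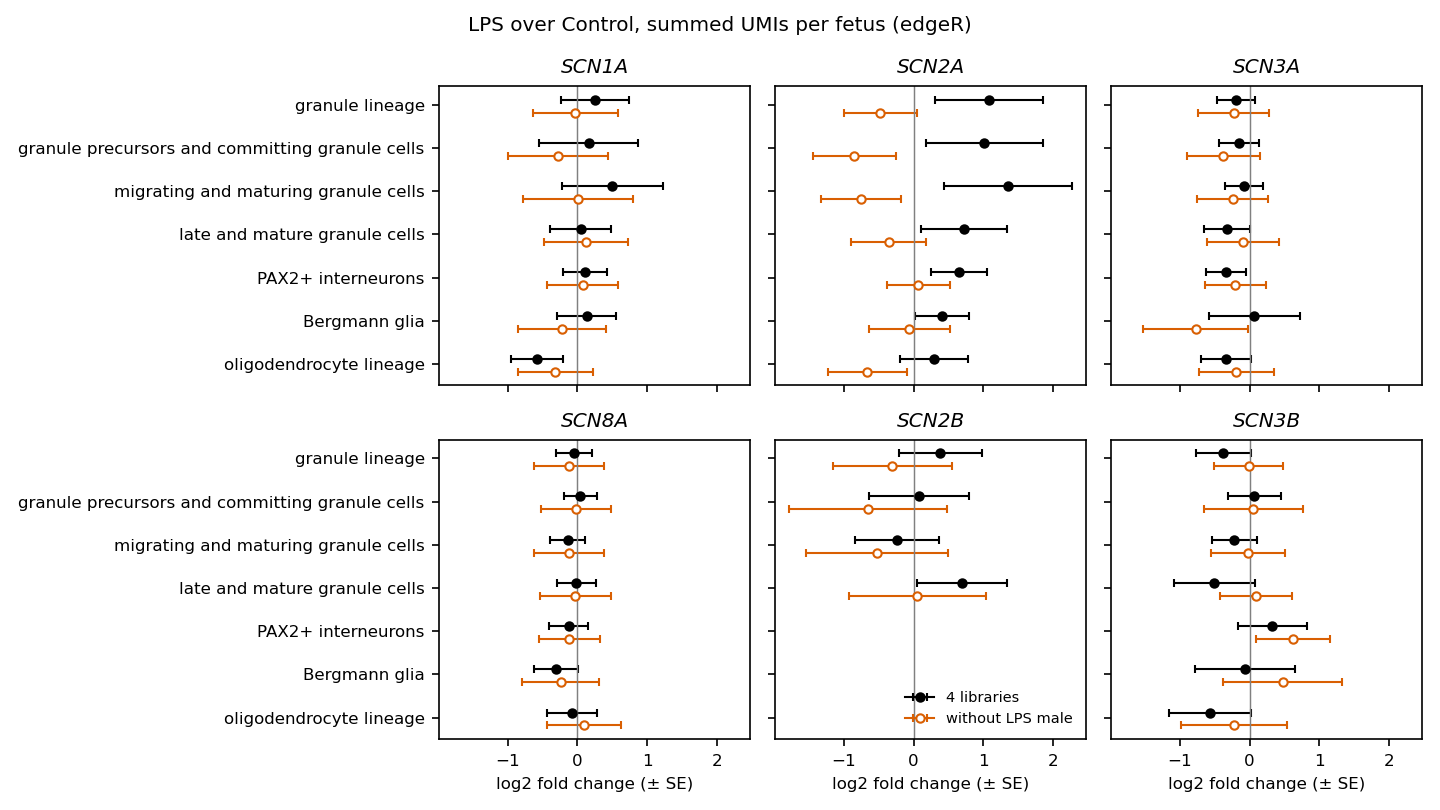
Log2 fold change of LPS over Control (edgeR, bars are SE) for each sodium channel gene in 7 classes or groups of stages, over 4 libraries (black) and without LPS male (open orange); a gene that failed the filter on low counts has no point. SCN2A in the granule lineage goes from 1.08 to -0.48 when LPS male is left out, and none of the 39 tests over 4 libraries passed.

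Over the whole granule lineage the share of SCN3A among SCN2A plus SCN3A UMIs was 51.03 and 64.9% in Control female and male and 62.1 and 26.01% in LPS female and male. The mean was 57.98 ± 9.84% in Control and 44.1 ± 25.5% in LPS (SD, n = 2 each), a difference of -13.9 percentage points (two-sided exact permutation test, p = 0.667). With 2 fetuses per group the smallest p this test allows is 0.333. Within sex the share was 11.1 points higher in LPS female than in Control female, and it fell by 38.9 points from Control male to LPS male. Without LPS male the difference was 4.11 points, in the other direction. With equal weight for each stage it was -8.81 points.

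Among the 15 partner genes, 12 to 14 were tested in each comparison and 0 were called in either direction in any of them, with 0 at an unadjusted p under 0.05 by edgeR. In the granule lineage 6 of 14 had a fold change above 0 and the median log2 fold change was -0.054, against 0.0093 over all genes tested.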

How the data were processed

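The authors deposited, for each library, the unfiltered matrix of UMI counts per gene and barcode from 10x Genomics single-nuclei libraries. The processing notes name Cell Ranger 4, the study's methods another release, and both the build Mmul_8.0.1. Nuclei were barcodes that showed 500 or more genes and no more than 5% mitochondrial UMIs. Libraries were integrated with Seurat 5.3.0 (R 4.3.3, 2000 variable features, 30 dimensions, resolution 0.5) after the sodium channel genes were left out, and clusters were named from marker lists with at least 3 markers raised. The members and all gene lists were chosen with earlier results of these data known. Likely doublets, called with scanpy 1.11.5 (Python 3.11.15), were kept, and in LPS male, where the caller's own threshold marked 0%, the median of the other thresholds was taken. The fetus was the replicate. Counts were summed per fetus and class and tested with edgeR 4.0.16. DESeq2 1.42.0 was an alternative tool. The exact permutation test and intervals came from SciPy 1.17.1. Named genes were the 6 members, the other sodium channel and partner genes of fixed lists, and the 3 genes most like each alpha subunit. Some genes of these lists are not reported here.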

Additional observations from a re-analysis of the deposited data

Results flagged for a closer look

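In several comparisons the LPS fetus lay above the control of its own sex in one sex and below it in the other. With 1 fetus per sex and group, the difference between the sexes was not tested, and sex cannot be told apart from the single fetus. For SCN2A the log2 difference of LPS over Control was, between females and between males, -0.64 and 2.01 in the granule lineage, -0.87 and 1.84 in precursors and committing granule cells, -0.69 and 2.13 in migrating and maturing granule cells, -0.49 and 1.53 in late and mature granule cells and -0.59 and 0.78 in the oligodendrocyte lineage. SCN1A was at 0.81 and -0.50 in late and mature granule cells and at -0.26 and 0.49 in Bergmann glia, in the same order. SCN3B was at 0.66 and -1.26 in Bergmann glia, and SCN2B at -0.50 and 0.52 in precursors and committing granule cells. The SCN3A share of SCN2A plus SCN3A UMIs in the granule lineage differed by 11.1 percentage points between the females and by -38.9 between the males.

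Free RNA is outside the nuclei that the comparisons use. SCN2A in the free RNA of LPS male stood at 419 CPM (exact 95% interval 385 to 455, counting error only), above the 165 to 210.3 CPM of Control female and the 149 to 207 CPM of Control male, while LPS female was at 93.8 CPM.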

How the results depend on the processing

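No sodium channel gene was called under any setting tried, sex as a block among them, and the lowest adjusted p was 0.678. The labels name the fetuses by group and sex and give no replicate numbers, so the block was the sex of the fetus. Of 362 log2 fold changes of the 6 genes under settings with all libraries, 352 kept their direction and 10 turned. With free RNA subtracted SCN8A was at 0.015 in the granule lineage and 0.029 in late and mature granule cells, and SCN3A at 0.045 in migrating and maturing granule cells. With classes set per barcode from marker scores SCN2B was at -0.20 in precursors and committing granule cells and 0.011 in migrating and maturing granule cells, and SCN3A at -0.10 in Bergmann glia. With doublets removed SCN8A was at 0.027 in late and mature granule cells and 0.064 in the oligodendrocyte lineage, without the filter on low counts at 0.0064 in late and mature granule cells, and with sex as a block SCN2B was at -0.060 in precursors and committing granule cells. The cause was not tested.

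Leaving out 1 library at a time turned 35 of 156 log2 fold changes. The turned ones ran over these ranges, in the granule lineage -0.21 to 0.97 for SCN1A, -0.48 to 1.81 for SCN2A, -0.12 to 0.028 for SCN8A and -0.31 to 0.85 for SCN2B, in precursors and committing granule cells -0.52 to 1.43 for SCN1A, -0.85 to 1.82 for SCN2A, -0.37 to 0.046 for SCN3A, -0.066 to 0.17 for SCN8A and -0.65 to 0.63 for SCN2B, in migrating and maturing granule cells -0.18 to 1.78 for SCN1A, -0.75 to 2.17 for SCN2A, -0.24 to 0.073 for SCN3A and -0.52 to 0.017 for SCN2B, in late and mature granule cells -0.40 to 0.71 for SCN1A, -0.36 to 1.33 for SCN2A, -0.062 to 0.049 for SCN8A and -1.51 to 0.093 for SCN3B, in PAX2+ interneurons -0.023 to 0.24 for SCN1A and -0.15 to 1.06 for SCN3B, in Bergmann glia -0.22 to 0.41 for SCN1A, -0.058 to 0.76 for SCN2A, -0.77 to 0.69 for SCN3A and -1.16 to 0.47 for SCN3B, in the oligodendrocyte lineage -0.66 to 0.83 for SCN2A and -0.29 to 0.10 for SCN8A. The difference in the SCN3A share ran from -31.97 to 4.11 percentage points, the latter without LPS male.

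Over all genes the number called in Bergmann glia, PAX2+ interneurons and the oligodendrocyte lineage was 14, 3 and 9 without the filter on low counts. In the oligodendrocyte lineage it was 37 with sex as a block, 1 by DESeq2 and 1 with doublets removed, and in late and mature granule cells 1 by DESeq2. With 1 library left out it was 1 to 78 in PAX2+ interneurons, 0 to 25 in Bergmann glia, 0 to 17 in the oligodendrocyte lineage and 0 to 1 in precursors and committing granule cells. Of 264 mean levels under other settings, 250 stayed within 1 SD. Among the 14 that did not, SCN2A in migrating granule cells was at 0.992 CPM with free RNA subtracted, SCN3A in PAX2+ interneurons at 445 CPM and SCN1A in oligodendrocyte precursors at 446 CPM. On simulated counts, edgeR called 4.48 to 49.3% of genes given a log2 change of 2 over the 7 comparisons, and 0 to 4.55% of those given 1. In such counts most changes of either size would be missed. The simulated libraries shared the same mean levels and a single dispersion, unlike the real ones, so the rates for the real counts are not known.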
